A study of Mus musculus with 29 samples.

Results

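The endothelial and blood-brain barrier genes were examined as a set of 44 symbols, listed by name. All 44 were found in the read count table of the TRAP-RNAseq libraries, each on 1 of its 36172 gene rows. By what their products do, 7 belong to junctions and adhesion, 9 are growth factor and hormone receptors or their partners, 5 are transcription factors, 9 carry molecules across the barrier, 2 build caveolae and fenestrae, and 12 are other endothelial surface, secreted or enzyme genes. No member was at or under 3 counts in any library.

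Capillary endothelial cells of the brain form the blood-brain barrier. Tight junctions seal the gaps between neighbouring cells, transporters choose which nutrients pass and pump drugs back into the blood, and transport by vesicles is kept low. VEGF and angiopoietin receptors, with transcription factors of the ETS and SOXF families, set endothelial identity. Pericytes sit on the outer face of the capillary and astrocyte endfeet cover most of it, so the genes of these neighbours lie close to the barrier in tissue. Several of the listed genes are not private to endothelium: the transporters Slc7a5, Slc3a2 and Tfrc serve many cell types, and Pecam1, Icam1, Fli1 and Ets1 are also used by blood and immune cells.

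NuTRAP mice carry an EGFP-tagged ribosomal protein, L10a, that Cre recombination switches on, which permits translating ribosome affinity purification (TRAP). In Aldh1l1-Cre/Ert2+; NuTRAP+ mice the Aldh1l1 promoter drives the inducible Cre in astrocytes, and in Cx3cr1-Cre/Ert2+; NuTRAP+ mice the Cx3cr1 promoter drives it in microglia, a promoter that other macrophages of the brain borders use too. All mice, of both sexes, received tamoxifen for 5 days at about 3 months of age, and neither Cre is meant to act in endothelium. In the Cx3cr1 line the paper delayed brain collection until several weeks after tamoxifen. For the Aldh1l1 line it names a week, for cytometry and staining, and gives no time for TRAP. One hemisphere was homogenized and cleared by centrifugation. Part of the supernatant was the input, RNA held on anti-GFP beads was the positive fraction and RNA left unbound was the negative fraction. Whole tissue, titled "slice" in the labels, was brain RNA isolated without the TRAP steps, and the part of the brain it came from is not given in the sources used here. The groups were the positive and negative fractions of 3 Aldh1l1-NuTRAP mice (290, 293 and 294), the positive, negative and input fractions of 6 Cx3cr1-NuTRAP mice (155, 192, 194, 209, 210 and 277), and whole tissue of 5 of the latter (not 155). Each library came from 1 mouse. Sex and means of euthanasia per mouse are not given in the labels.

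Library totals ran from 4260949 to 26857866 reads, the lowest being the whole tissue of mouse 210. Values below are counts scaled to 1000000 reads per library (CPM) for levels, and log2 differences from edgeR, scaled by its TMM factors, for comparisons. CPM does not take transcript length into account, so levels are compared between groups and not between genes. The labelled fractions carried their own markers: 8 of 8 astrocyte markers were called higher in the Aldh1l1-NuTRAP positive than negative fraction, and 10 of 10 microglial markers higher in the Cx3cr1-NuTRAP positive fraction than in input. Of 6 border macrophage markers, Mrc1 (log2 2.92), F13a1 (3.13) and Cd163 (2.53), also tested in comparisons without that fraction, were higher in it too. Pf4, Lyve1 and Cbr2 passed the low-count filter only through that fraction, where they were high, so no count over all 6 is given. Some libraries stood apart within their group. The whole tissue of mouse 210 had a summed level of 8339 CPM over a list of 7 nuclear RNAs, against 3342 to 4950 in the other 4 whole tissues and 7084 to 8797 in the inputs. In the positive fractions of Cx3cr1-NuTRAP mice 155, 192 and 194 the same sum was 18340, 15190 and 18390 CPM, against 6364, 6645 and 8362 in mice 209, 210 and 277. In the Aldh1l1-NuTRAP positive fractions of mice 290, 293 and 294 the summed astrocyte markers were 15750, 23340 and 22000 CPM, the microglial markers 158, 69.97 and 78.5 and the erythrocyte markers 95.95, 28.2 and 37.4, so that mouse 290 was lower in the first and higher in the other sums. Counts without these libraries are given beside the results that rest on them.

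The input was compared with whole tissue to ask whether the cleared homogenate holds vessel RNA in the same proportion as the tissue does. Endothelial genes were lower in input across almost the whole list. Of 43 members tested, 37 were called lower at an adjusted p under 0.05 and 0 higher, where 14.6% of all 13608 genes tested were called lower and 15.7% higher (edgeR; without the low-count filter and with DESeq2 the count of members higher was also 0, and 40 members had an unadjusted p under 0.05). The low-count filter was passed in both groups by 38 of the 43, and in input only by Flt4, Robo4, Erg, Sox17 and Icam1, whose counts were low in the whole tissue of mouse 210. The median log2 difference of the members was -0.95, against 0 over all genes tested, and 20 members differed by more than 2-fold. For 26 members every input library lay below every whole tissue library in CPM, as it did for 5.61% of all genes tested. In bulk RNA, fewer endothelial cells or vessel fragments in a sample and less RNA per cell cannot be told apart, and neither can the preparation and the part of the brain sampled.

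**Figure D1:**
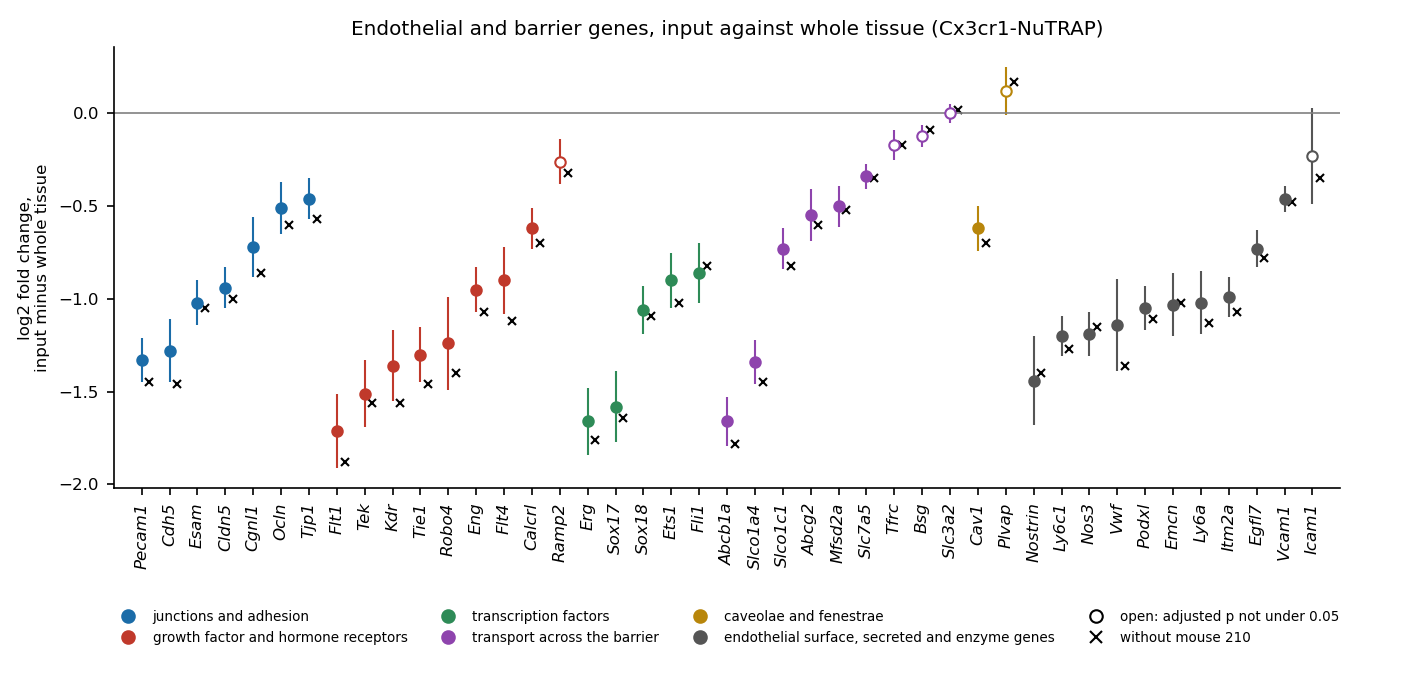
Log2 difference of input against whole tissue in Cx3cr1-NuTRAP mice (vertical axis, edgeR, bars of 1 standard error) for the 43 members tested (horizontal axis), grouped by role. Filled points passed an adjusted p under 0.05, open points did not, and crosses give the value without mouse 210. Nearly all points lie below 0, with Flt1 at -1.71 the lowest and Plvap at 0.12 the highest.

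All 7 junction and adhesion genes were lower in input, with a median log2 difference of -0.94. Cldn5, the main claudin of brain capillary tight junctions (chr16:18776847-18778262 in mm10, Entrez 12741), stood at 58.1, 49.1, 64.5, 38.6 and 60.5 CPM in the whole tissue of mice 192, 194, 209, 210 and 277, and at 26.9 at the lowest, 28.2 at the median and 31.9 at the highest over the 6 inputs. The groups did not overlap, and the whole tissue of mouse 210 was nearest the inputs. Cldn5 fell by 0.94 on the log2 scale in input (SE 0.11, edgeR adjusted p = 6.38e-05), a 1.91-fold difference. Pecam1, the adhesion molecule that names the endothelium in most tissues (chr11:106654218-106715281), had 33.95, 29.9, 35.95, 21.6 and 32.8 CPM in the 5 whole tissues and 10.3 to 14.5 in the inputs. It too separated without overlap, 2.52-fold lower in input (log2 -1.33, SE 0.12, edgeR adjusted p = 1.75e-05). Cdh5, the cadherin of endothelial adherens junctions, had 22.3, 22.7, 23, 8.83 and 23.96 CPM in whole tissue and 7.84 to 10.1 in input. Here 1 library broke the separation: the whole tissue of mouse 210 fell inside the input range while the other 4 lay at 22.26 CPM or above. Cdh5 was 2.43-fold lower in input with all mice (log2 -1.28, SE 0.17, edgeR adjusted p = 0.000128).

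Esam, an adhesion molecule of endothelial junctions, had 18.2, 17.2, 22.8, 14.1 and 13.9 CPM in the whole tissues and 8.26 to 9.195 in input, a log2 difference of -1.02. Ocln, the other classical tight junction protein, had 16.9, 11.4, 12.8, 11.7 and 13.8 CPM in whole tissue and 7.64 to 11.5 in input, and the groups touched. Smaller differences belonged to Ocln (-0.51), to Tjp1, a junction scaffold found in many cell types (-0.46), and to the paracingulin gene Cgnl1 (-0.72). These 3 were called lower, but the calls of Ocln and Tjp1 were lost under at least 1 alternative setting.

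Among the receptors, 8 of 9 were called lower, with a median log2 difference of -1.24. Flt1, a VEGF receptor that binds its ligand tightly and signals weakly (chr5:147562196-147725988), had 83.6, 75.02, 65.7, 32.7 and 66.7 CPM in whole tissue and 14.03 at the lowest, 21.1 at the median and 24.3 at the highest over the inputs. Every input was below every whole tissue, and mouse 210 again had the lowest whole tissue value. With a log2 difference of -1.71 (SE 0.20, edgeR adjusted p = 9.81e-05), 3.26-fold lower in input, Flt1 differed most of the 43 members. Kdr, the main signalling VEGF receptor, had 19.8, 20.6, 17.9, 12.5 and 19.9 CPM in whole tissue and 4.62 to 10.2 in input (log2 -1.36). Tek, the angiopoietin receptor, had 25.5, 20.1, 24.1, 9.61 and 22.8 CPM in whole tissue and 5.78 to 9.26 in input, 2.84-fold lower (log2 -1.51, SE 0.18, edgeR adjusted p = 8.07e-05). The whole tissue of mouse 210 exceeded the highest input of Tek by a small margin only. Tie1, its co-receptor, had 17.4, 16.4, 18.4, 7.75 and 15.7 CPM in whole tissue and 5.81 to 7.44 in input (log2 -1.30).

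The remaining receptors differed less or were low. Robo4, which stabilizes vessels, had 7.64, 7.44, 8.64, 2.93 and 7.06 CPM in whole tissue and 1.72 to 4.099 in input, overlapping through mouse 210, with a log2 difference of -1.24. Eng, a TGF-beta co-receptor, was at -0.95, the VEGF-C receptor gene Flt4 at -0.90, and Calcrl, the receptor of the adrenomedullin and CGRP complexes, at -0.62. Ramp2, the partner that gives Calcrl its preference for adrenomedullin, did not pass: it had 13.04, 9.96, 13.1, 8.63 and 14.3 CPM in whole tissue and 8.91 to 10.7 in input (log2 -0.26, SE 0.12, edgeR adjusted p = 0.107). Without mouse 210 it passed, at -0.32 (edgeR adjusted p = 0.0346).

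The 5 transcription factors, 3 of the ETS family and 2 of the SOXF family, were all lower, with a median log2 difference of -1.06. Erg, an ETS factor that maintains endothelial identity, had 7.16, 5.72, 6.34, 3.75 and 5.57 CPM in whole tissue and 1.33 to 2.24 in input. The groups did not overlap, and Erg was 3.16-fold lower in input (log2 -1.66, SE 0.18, edgeR adjusted p = 4.56e-05). Sox17, a SOXF factor of arterial endothelium, had 6.597, 5.37, 5.56, 3.33 and 6.39 CPM in whole tissue and 1.41 to 2.42 in input, a log2 difference of -1.58 (edgeR adjusted p = 7.5e-05). Its relative Sox18 had 6.995, 8.37, 9.29, 8.21 and 9.48 CPM in whole tissue and 3.32 to 4.77 in input, and unlike the other SOXF gene was not lowest in mouse 210. Ets1 and Fli1, ETS factors shared with blood cells, were lower by log2 values of -0.90 and -0.86. Fli1 had 5.46, 4.896, 5.41, 6.57 and 4.701 CPM in whole tissue, with mouse 210 the highest, and 2.42 to 3.76 in input.

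Because ETS factors bind a GGAA core, the promoters of 2 receptors that were lower in input together, Tek and Tie1, are shown with every CAGGAA, or its reverse complement TTCCTG, in capitals. Each run is the 250 bases before the RefSeq start in GRCm38.p6 (mm10), written 5′ to 3′ on the gene's strand, at chr4:94739039-94739288 on the forward strand for Tek and chr4:118489850-118490099 on the reverse strand for Tie1.
Tek: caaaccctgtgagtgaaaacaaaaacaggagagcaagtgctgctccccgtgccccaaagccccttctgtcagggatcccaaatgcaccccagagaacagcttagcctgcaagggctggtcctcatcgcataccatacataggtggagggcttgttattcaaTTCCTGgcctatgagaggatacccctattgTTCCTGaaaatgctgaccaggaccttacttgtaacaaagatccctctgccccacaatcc
Tie1: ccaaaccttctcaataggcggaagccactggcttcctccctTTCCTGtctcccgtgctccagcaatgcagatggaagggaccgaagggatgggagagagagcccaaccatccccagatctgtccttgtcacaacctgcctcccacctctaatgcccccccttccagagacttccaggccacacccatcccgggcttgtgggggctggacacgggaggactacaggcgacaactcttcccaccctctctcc
The Tek window holds 2 matches and the Tie1 window 1. RefSeq windows were at hand for 27 of the 44 members, 37 windows in all because some genes have several starts. CAGGAA on either strand was found in 37.8% of them, against 25.7% of 32851 windows of all genes, and CCGGAA (reverse complement TTCCGG) in 10.8% against 12.0%. Such matches are descriptions of sequence, and no binding was measured.

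Transport genes were mixed, with 6 of 9 called lower and a median log2 difference of -0.50. Abcb1a and Slco1a4 differed most. Abcb1a, the drug efflux pump P-glycoprotein (chr5:8660092-8748570), had 65.3, 51.96, 58.1, 34.2 and 49.5 CPM in whole tissue and 14.3 at the lowest, 16.6 at the median and 19.4 at the highest over the inputs. No input reached the lowest whole tissue value, and Abcb1a was 3.16-fold lower in input (log2 -1.66, SE 0.13, edgeR adjusted p = 1.14e-05). Slco1a4, an organic anion carrier, had 55.3, 52.8, 59.2, 31.9 and 45.1 CPM in whole tissue and 17.2 to 21.3 in input (log2 -1.34, SE 0.12, edgeR adjusted p = 1.75e-05). Reads of both may be shared in part with close paralogs, Abcb1b and other Slco1a genes, so their levels are uncertain to that extent.

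Slco1c1, the thyroxine carrier, had 62.3, 55.4, 56.01, 35.2 and 61.5 CPM in whole tissue and 29.9 to 36.3 in input, and mouse 210 fell inside the input range (log2 -0.73). Mfsd2a, which imports docosahexaenoic acid as a lysolipid and restrains vesicle transport, had 27.6, 24.9, 23.8, 22.7 and 18.1 CPM in whole tissue and 14 to 18.8 in input, again with overlap (log2 -0.50). Abcg2, a second efflux pump, was at -0.55 and lost its call under at least 1 alternative. The amino acid transporter light chain Slc7a5 was at -0.34, while its heavy chain Slc3a2 was at 0.00 (SE 0.05, edgeR adjusted p = 0.992). Bsg, the basigin chaperone of lactate carriers, had 462, 451, 492, 487 and 494 CPM in whole tissue and 413 to 508 in input and did not pass (log2 -0.12). Tfrc, the transferrin receptor, was likewise not called (-0.17, SE 0.08).

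Of the vesicle and fenestra genes, Cav1, the coat protein of caveolae, had 15.9, 19.3, 21.8, 12.6 and 16.6 CPM in whole tissue and 9.91 to 13.02 in input, a log2 difference of -0.62. Plvap, the diaphragm protein of fenestrated and immature vessels that mature barrier capillaries lack, had 11.4, 10.6, 12.97, 19.1 and 13.98 CPM in whole tissue and 13.2 to 17.6 in input. It was the member furthest above 0, without passing (log2 0.12, SE 0.13, edgeR adjusted p = 0.5), and the whole tissue of mouse 210 was the highest of the 5. Summed markers of choroid plexus, a tissue with fenestrated vessels, were 399.9, 276.1, 208.9, 826.3 and 994.5 CPM in the same whole tissues and 842.1 to 1010 CPM in the inputs, and 3 of 7 were called higher in input. Their part in the Plvap values was not tested.

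Of the 12 other endothelial genes, 11 were tested and 10 were called lower, with a median log2 difference of -1.03. Ly6c1, a surface protein abundant on brain endothelium, had 32.3, 27.8, 33.4, 19.8 and 32.4 CPM in whole tissue and 12.1 to 14.9 in input, a non-overlapping 2.301-fold difference (log2 -1.20, SE 0.11, edgeR adjusted p = 1.75e-05). Its relative Ly6a, with which it may share reads, had 23.2, 19.5, 32.2, 15.2 and 33.8 CPM in whole tissue and 10.3 to 14.1 in input (log2 -1.02). Itm2a had 69.1, 64.97, 62.1, 40.1 and 54.8 CPM in whole tissue and 26.3 to 33.1 in input (log2 -0.99). Vwf, the clotting factor stored in endothelial granules, was more variable, with 25.2, 23.6, 31.5, 15.1 and 33.2 CPM in whole tissue and 6.48 to 17.4 in input, and overlapped through mouse 210 (log2 -1.14, SE 0.25, edgeR adjusted p = 0.00521).

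Nostrin, which traffics nitric oxide synthase, had 5.18, 6.42, 4.22, 5.87 and 3.36 CPM in whole tissue and 0.995 to 2.87 in input (log2 -1.44). Nos3, the synthase itself, had 13.9, 11.4, 11.97, 12.9 and 14.7 CPM in whole tissue and 5.07 to 7.38 in input (log2 -1.19). Of the sialomucin genes, Podxl had 42.2, 39.1, 44.5, 32 and 54.7 CPM in whole tissue and 16.5 to 24.7 in input (log2 -1.05), and Emcn had 7.04, 5.03, 6.06, 8.601 and 7.01 and 2.4 to 4.02 CPM (log2 -1.03). The secreted factor gene Egfl7 was at -0.73 on the log2 scale. The leukocyte adhesion molecules differed from each other. Vcam1 had 35.04, 39.6, 35.9, 35.4 and 38.3 CPM in whole tissue and 24.6 to 29.5 in input and was called lower at -0.46, whereas Icam1 did not pass (-0.23, SE 0.26, edgeR adjusted p = 0.53). Icam2 was too low to be tested with mouse 210 included, although its 2.23, 4.16, 3.12, 1.88 and 2.66 CPM in whole tissue lay above its 0.884 to 1.6 in input. Without that mouse it passed the low-count filter only through whole tissue, where it was high, so no test value is given for it.

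Leaving out mouse 210 left the comparison in place. Its whole tissue library was the lowest of the 5 for 29 of 44 members, lay inside the input range for 12, above every input for 31 and below every input for 1. The other 4 whole tissues were above every input for 36 of 44 members, as they were for 13.5% of all genes tested without this mouse. Without this mouse, 38 of the 43 members tested both ways were called lower (19.4% of all genes tested), and their median log2 difference was -1.05 in place of -0.95. The value was lower without mouse 210 for 35 of those 43. In every alternative setting tried, 34 of the 37 calls were kept, and the exceptions were Ocln, Tjp1 and Abcg2.

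Other cell types also differed between input and whole tissue. Pericyte and smooth muscle markers were lower in 9 of 12 tested, with a median log2 difference of -0.73. Their values ran from -2.68 to 0.30, and Acta2, their defining actin, was listed at 0 in every library. Oligodendrocyte markers were lower in 6 of 7 and their sum was 6256 to 8501 CPM in whole tissue against 4453 to 5122 in input. Astrocyte markers were lower in 3 of 8 and higher in 0, with a median log2 difference of -0.17. Neuronal markers were higher in 4 of 8 and lower in 2. The median log2 difference was -0.08 for 10 microglial and 0.05 for 4 erythrocyte markers. Nuclear RNAs were higher in 4 of 7 and lower in 1, and their sum moved with the members in mouse 210, whose whole tissue was closest to the inputs in both. The part of these shifts in the endothelial result was not tested.

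A wider list of 78 vascular genes held none of the 44 members and covered ligands and receptors of VEGF, angiopoietin, Wnt, Norrin and TGF-beta signalling, further transporters and junction genes, transcription factors and endothelial surface genes. Of its 70 tested genes, 37 were lower in input (14.6% of all genes tested) and 5 higher (15.7%), with a median log2 difference of -0.32. The largest decreases were those of Ptprb, the phosphatase that acts on Tek (-1.67, edgeR adjusted p = 9.81e-05), Mmrn2, an endothelial matrix protein (-1.64), and the adhesion receptor Eltd1 (-1.48). Increases were seen for Plxnd1, a semaphorin receptor (0.76), the astrocyte-derived ligand Wnt7a (0.46) and the reelin receptor Lrp8 (0.33).

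In the astrocyte line the positive fraction was compared with the unbound RNA of the same hemispheres, the comparator used here for that line. Most endothelial genes showed no difference that passed, and a small group with Vcam1, Mfsd2a, Slco1c1, Ramp2 and Slc3a2 at its head was several-fold higher on the beads. Of 40 members tested, 8 were called higher and 2 lower, where 26.8% of all 13319 genes tested were called higher and 24.8% lower. The members' median log2 difference was -0.10, against 0.04 over all genes tested, with 18 of 40 above 0. Scaling by total counts alone moved the median of all genes by -0.35, left 12 members above 0, and gave 6 members higher (18.3% of all genes) and 7 lower (36.1%), so the sign of values near 0 depends on the scaling. Flt4, Fli1, Sox17 and Nostrin were too low to be tested. Kdr, Robo4, Erg, Emcn, Icam1 and Icam2 passed the low-count filter only through the negative fraction, and none of these 6 was called.

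Vcam1, an adhesion molecule of activated endothelium (chr3:116110020-116129688), had 130.2, 149.9 and 126 CPM in the positive fractions of mice 290, 293 and 294 and 25.1, 22.5 and 22.1 in their negative fractions. All 3 positive values were far above the negative ones. The difference was 7.43-fold (log2 2.89, SE 0.16, edgeR adjusted p = 4.16e-05). Mfsd2a (chr4:122946851-122961188) had 75.5, 106 and 104 CPM in positive and 16, 21.9 and 19.6 in negative fractions, a 6.29-fold difference (log2 2.65, SE 0.19, edgeR adjusted p = 8.01e-05). Slco1c1 (chr6:141524386-141570177), which serves both endothelium and astrocytes in thyroid hormone supply, had 77.7, 139.7 and 125 CPM in positive and 23.8, 36.1 and 34.5 in negative fractions. Mouse 290 was the lowest in both, and the difference was 4.603-fold (log2 2.20, SE 0.26, edgeR adjusted p = 0.000468).

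Ramp2 had 35.9, 32.4 and 36.5 CPM in positive and 12.1, 15.1 and 12.03 in negative fractions, 3.38-fold higher (log2 1.76, edgeR adjusted p = 0.000191), while its receptor partner Calcrl did not pass at 0.36 (SE 0.24). Slc3a2 had 338, 287 and 268 CPM in positive and 138, 117 and 105 in negative fractions, 3.15-fold higher (log2 1.66, edgeR adjusted p = 0.000383). Its light chain Slc7a5 did not pass (0.69, SE 0.28, edgeR adjusted p = 0.0711). For Vcam1, Mfsd2a, Slco1c1, Ramp2 and Slc3a2 the fractions did not overlap, and these 5 calls held in every alternative setting tried. In CPM, 5 of 40 members lay wholly higher and 8 wholly lower in the positive fractions, as 21.4% and 41.6% of all genes tested did, so both shares were below those of all genes.

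Promoters of the 2 transporters with the largest rise on astrocyte ribosomes, Mfsd2a and Slco1c1, are shown as well. The 250-base RefSeq windows in GRCm38.p6 (mm10) lie at chr4:122961189-122961438 on the reverse strand and chr6:141524104-141524353 on the forward strand, and capitals would mark, on either strand, the pair of ETS motifs above or TTGGCA, the core of the site bound by the NFI factors of astrocytes.
Mfsd2a: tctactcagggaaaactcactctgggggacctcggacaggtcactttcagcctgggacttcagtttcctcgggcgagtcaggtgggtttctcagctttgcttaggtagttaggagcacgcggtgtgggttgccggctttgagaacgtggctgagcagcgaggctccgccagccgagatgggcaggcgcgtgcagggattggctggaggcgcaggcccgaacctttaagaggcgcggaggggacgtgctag
Slco1c1: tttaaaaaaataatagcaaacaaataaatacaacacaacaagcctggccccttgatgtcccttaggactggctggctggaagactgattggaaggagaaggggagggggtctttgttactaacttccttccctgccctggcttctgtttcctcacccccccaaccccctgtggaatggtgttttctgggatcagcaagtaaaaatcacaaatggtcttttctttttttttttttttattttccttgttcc
Neither window holds any of the 3 motifs, which says nothing about binding of the factors. TTGGCA (reverse complement TGCCAA) was found in 16.2% of the members' windows and 12.3% of all.

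Less stable increases were those of Tjp1, Cgnl1 and Bsg. Tjp1 had 66.6, 157 and 162 CPM in positive and 40.1, 66.5 and 68.3 in negative fractions, with mouse 290 low in both (log2 1.48, SE 0.36, edgeR adjusted p = 0.0108). Cgnl1 had 17.2, 41.5 and 36.4 CPM in positive and 17.4, 19.9 and 20.8 in negative fractions, so that mouse 290 showed no rise in CPM (log2 1.05, edgeR adjusted p = 0.0231). The positive fraction of this mouse also had the low astrocyte and high microglial and erythrocyte sums given above, and their part in these values was not tested. Bsg was at 0.64 (edgeR adjusted p = 0.0441). Decreases were called for Abcg2, with 4.26, 4.86 and 4.77 CPM in positive and 9.97, 11.4 and 8.93 in negative fractions (log2 -0.78), and for Egfl7, with 10.2, 10.99 and 5.8 and 26.4, 23.1 and 19.1 CPM (log2 -1). Each of these 5 calls was lost in at least 1 alternative. Without mouse 293 the counts were 5 higher and 0 lower, where 14.8% and 12.6% of all genes tested were called, and without mouse 294 they were again 5 and 0 (14.8% and 12% of all genes). Without mouse 290 they were 10 and 5 (34.6% and 34.3%), and with the mouse as a replicate block 10 and 4 (37% and 33.8%). The members' counts thus moved the same way as the share of all genes called.

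For Cldn5, Pecam1, Cdh5, Flt1 and Abcb1a no difference passed, with or without the mouse as a replicate block. Cldn5 had 41.1, 23.3 and 14.8 CPM in the positive fractions and 84.3, 34.5 and 18.1 in the negative fractions, with mouse 290 highest in both (log2 -0.44, SE 0.60). Pecam1 was at -0.12 (SE 0.35), Cdh5 at 0.05 (SE 0.54), Flt1 at -0.23 (SE 0.37) and Abcb1a at -0.33 (SE 0.49). Within mice, the CPM of Cldn5, Pecam1, Flt1 and Abcb1a was lower in the positive fraction in 3 of 3, a direction that depends on the scaling as given above. With the block, Cldn5 was at -0.29 (edgeR adjusted p = 0.102), Abcb1a at -0.40 (edgeR adjusted p = 0.0955), Flt1 at -0.27 (edgeR adjusted p = 0.246), Pecam1 at -0.13 (edgeR adjusted p = 0.571) and Cdh5 at 0.02 (edgeR adjusted p = 0.955). Slco1a4 had 6.46, 14.99 and 12.4 CPM in positive and 19.6, 28.3 and 18.4 in negative fractions, and did not pass without the block (log2 -0.62, edgeR adjusted p = 0.139). With the block it passed (log2 -0.64, edgeR adjusted p = 0.0123), as did Itm2a at -0.50 and, in the other direction, Slc7a5 at 0.65 and Tfrc at 0.26. A p that misses the threshold with 3 mice does not show that the fractions were alike. In the same fractions 10 of 10 microglial and 8 of 8 neuronal markers were lower, and 7 of 7 choroid plexus markers were higher with a median log2 difference of 2.31. Pericyte and smooth muscle markers were higher in 3 and lower in 5 of 13.

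**Figure D2:**
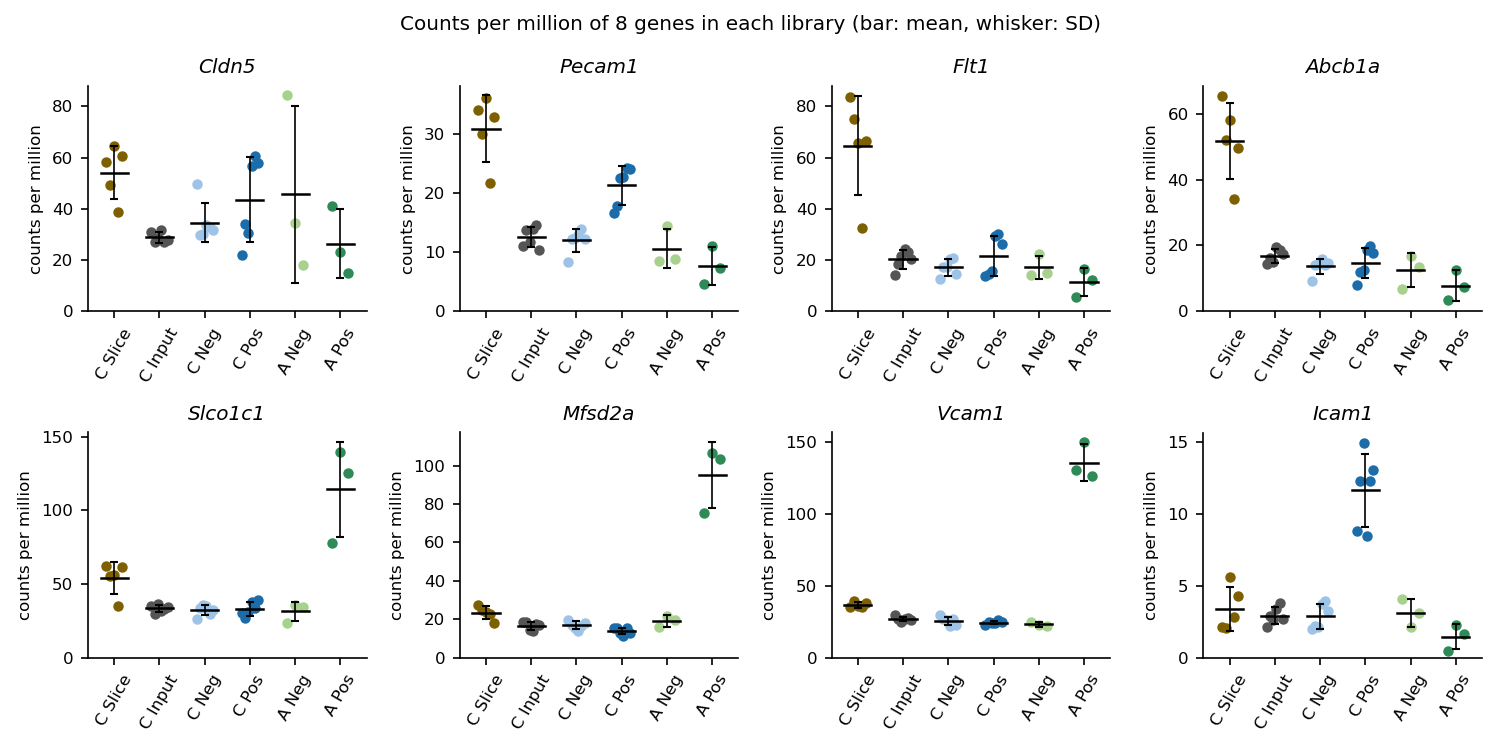
CPM of Cldn5, Pecam1, Flt1, Abcb1a, Slco1c1, Mfsd2a, Vcam1 and Icam1 (vertical axes) in each library of the 6 groups, where A marks Aldh1l1-NuTRAP and C Cx3cr1-NuTRAP. Points are libraries, bars the group mean and whiskers the SD. By group mean, Cldn5, Pecam1, Flt1 and Abcb1a are highest in whole tissue, although the single highest Cldn5 library is the astrocyte negative fraction of mouse 290 at 84.3 CPM, while Slco1c1, Mfsd2a and Vcam1 are highest in the astrocyte positive fraction and Icam1 in the microglial positive fraction.

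In the wider vascular list, 26 of 70 genes were higher in the astrocyte positive fraction (26.8% of all genes tested) and 10 lower (24.8%). Their median log2 difference was 0.32. S1pr1, the sphingosine-1-phosphate receptor (3.51), Ndp, the Norrin ligand of barrier signalling (3.33), and the Wnt ligand gene Wnt7b (2.68) rose most. Foxl2 (-2.24), the sialomucin gene Cd34 (-1.71) and the guidance ligand gene Slit3 (-1.50) fell most.

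In the microglial line the positive fraction was compared with the input it came from. A subset of the list led by transcription factors and adhesion molecules was higher on the beads, while most transporters and receptors did not pass the test. Of 44 members, 20 were called higher and 2 lower, where 23.3% of all 13838 genes tested were called higher and 25.6% lower. Icam2, counted among the 20, passed the low-count filter only through the positive fraction, where it was high. The members' median log2 difference was 0.29, against 0 over all genes tested, and 35 of 44 were above 0. By role, 4 of 7 junction genes, 2 of 9 receptors, 4 of 5 transcription factors, 3 of 9 transport genes, 1 of 2 vesicle and fenestra genes and 6 of 12 other endothelial genes were higher.

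More than 2-fold increases were seen for Fli1, Icam1, Ets1, Eng and Sox17. Fli1 (chr9:32422208-32541368) had 9.13 at the lowest, 11.02 at the median and 19.9 at the highest of the 6 positive fractions, and 2.42 to 3.76 CPM in input. No value of one group reached the other, mouse 194 had the highest positive value, and the log2 difference was 2.05 (SE 0.20, edgeR adjusted p = 2.47e-06). Ets1 (chr9:32696042-32757820), its neighbour on the chromosome and its relative, had 20.8 at the lowest, 25.6 at the median and 35.4 at the highest in CPM, against 6.26 to 10.02 in input (log2 1.66, SE 0.14, edgeR adjusted p = 6.44e-07). The third ETS gene, Erg, did not pass (0.71, SE 0.29, edgeR adjusted p = 0.0518). Icam1, the ligand of leukocyte integrins (chr9:21015960-21028796), had 8.47 at the lowest, 12.3 at the median and 14.97 at the highest in CPM, against 2.15 to 3.82 in input (log2 2.00, SE 0.18, edgeR adjusted p = 7.34e-07). Eng had 26.6 at the lowest, 30.9 at the median and 46.8 at the highest in CPM, against 11.4 to 14.9 in input (log2 1.34, SE 0.13, edgeR adjusted p = 2.15e-06). Sox17 had 1.67, 2.45, 5.39, 4.204, 5.32 and 6.45 CPM in mice 155, 192, 194, 209, 210 and 277 and 1.41 to 2.42 in input, so that the lowest positive fraction lay inside the input range (log2 1.18, SE 0.28, edgeR adjusted p = 0.00326).

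Icam1 was the only one of the 5 promoters printed here with CCGGAA or TTCCGG, shown in capitals in its RefSeq window at chr9:21015690-21015939 on the forward strand in GRCm38.p6 (mm10).
Icam1: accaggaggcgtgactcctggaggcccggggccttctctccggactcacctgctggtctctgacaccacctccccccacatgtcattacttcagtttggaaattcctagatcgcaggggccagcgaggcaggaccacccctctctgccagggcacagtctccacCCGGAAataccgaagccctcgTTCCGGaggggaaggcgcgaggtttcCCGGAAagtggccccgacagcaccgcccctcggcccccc
The window holds 3 matches.

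Pecam1 had 16.6, 17.7, 22.5, 22.6, 24.2 and 24.1 CPM in the positive fractions and 10.3 to 14.5 in the inputs, without overlap (log2 0.78, SE 0.12, edgeR adjusted p = 0.000119). Tie1 had 8.46, 8.33, 9.65, 11.6, 13.99 and 11.3 CPM in the positive fractions and 5.81 to 7.44 in input (log2 0.74), while Tek, Kdr and Flt1 were at 0.22, 0.18 and 0.10 and did not pass. Ly6c1 was at 0.98, Ly6a at 0.86, Egfl7 at 0.62 and Nos3 at 0.46, all called. Icam2, given as a description, was at 1.00. Besides Icam2, the increases kept in every setting planned were those of Pecam1, Tie1, Eng, Fli1, Sox17, Ets1, Egfl7, Nos3, Icam1, Ly6a and Ly6c1. Among the barrier transporters, Abcb1a was at -0.18, Slco1a4 at 0.10, Slco1c1 at 0.00 and Mfsd2a at -0.25, none of them called without the replicate block, and Vcam1 was not called at -0.13. The decreases of Calcrl (-0.36) and Tfrc (-0.24) were small and not kept: the count of members lower was 0 without mouse 192, 210 or 277 and 1 without mouse 209. With the mouse as a replicate block 15 members were higher (19% of all genes tested) and 3 lower (23.9%). The increases of Cldn5 (0.52, edgeR adjusted p = 0.0597), Cgnl1 (0.71, edgeR adjusted p = 0.176), Abcg2, Slc3a2 and Bsg did not pass with the block, nor did the decrease of Tfrc. Mfsd2a (-0.25, edgeR adjusted p = 0.0397) and Ocln (-0.46, edgeR adjusted p = 0.0305) were called lower with it.

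The members did not move as 1 block across mice. In mice 155, 192, 194, 209, 210 and 277, the positive fractions had 21.8, 34.2, 30.7, 56.5, 60.6 and 57.98 CPM of Cldn5, against 26.9 to 31.9 in input, so mouse 155 lay below every input, mouse 194 inside their range and the other 4 above it. Ly6c1, at 13.3, 19.6, 19.4, 30.1, 36.8 and 33 CPM, was also higher in each of mice 209, 210 and 277 than in any of the other 3. Cgnl1 was the reverse, at 128, 67.5, 88.8, 26.98, 27.4 and 40.1 CPM against 26.9 to 38.6 in input, and Tjp1 was as well, at 194, 130.4, 225, 64.1, 65.4 and 93.3 CPM. The nuclear RNA sum was high in the same libraries as Cgnl1 and Tjp1, mice 155, 192 and 194, and microglial marker sums were 5247, 6070 and 9184 CPM there against 3897, 4669 and 5443 in mice 209, 210 and 277. Other marker sums were higher where Cldn5 and Ly6c1 were. In mice 155, 192 and 194 the erythrocyte sum of the positive fraction was 78.8, 137.1 and 29.3 CPM, against 270.6, 506.2 and 394.8 in mice 209, 210 and 277. Neuronal sums were 5343 to 6258 against 7372 to 8214 CPM, astrocyte sums 2728 to 3312 against 4105 to 4280, choroid plexus sums 226 to 853 against 919.7 to 1050, and pericyte and smooth muscle sums 99.8 to 136 against 158 to 168. The part of these values in the members' differences was not tested.

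**Figure D3:**
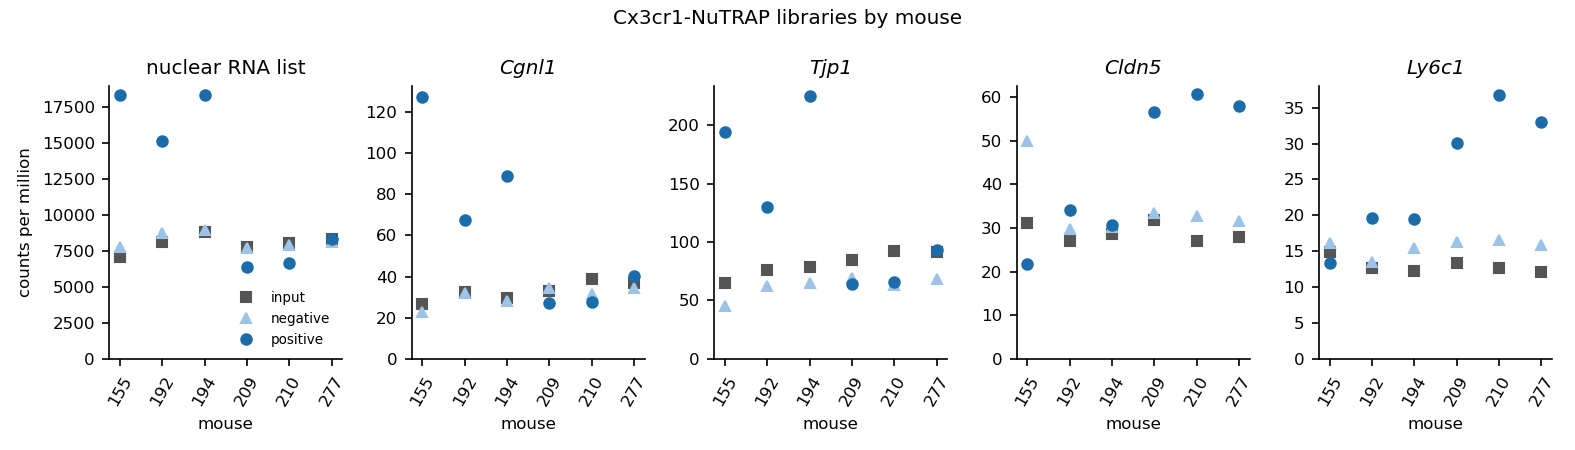
Input, negative and positive fraction of each Cx3cr1-NuTRAP mouse (horizontal axis) for the summed nuclear RNA list, Cgnl1, Tjp1, Cldn5 and Ly6c1 (vertical axes, CPM). In mice 155, 192 and 194 the positive fraction is high in nuclear RNA, Cgnl1 and Tjp1 and low in Cldn5 and Ly6c1 relative to mice 209, 210 and 277.

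With mice 209, 210 and 277 alone, 29 of 44 members were called higher (29.9% of all genes tested) and 1 lower (29.2%), with a median log2 difference of 0.45. With mice 155, 192 and 194 alone, 9 were higher (21.6%) and 2 lower (20.6%), with a median of 0.12. These subsets were formed after the data were seen, and the difference between them was not tested. The values are therefore a description. Cldn5 was at 1.03 in the first and at 0.04 in the second. Cgnl1 was at -0.19 in the first and 1.72 in the second, and Tjp1 at -0.25 and 1.37. Members called in both were Pecam1 at 0.89 and 0.68, Tie1 at 0.91 and 0.57, Eng at 1.24 and 1.49, Fli1 at 1.91 and 2.24, Ets1 at 1.43 and 1.95, Egfl7 at 0.87 and 0.39, and Icam1 at 1.79 and 2.26.

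Against the unbound fraction of the same mice, 14 of 44 members were higher (12.8% of all 13776 genes tested) and 0 lower (11.6%), with a median log2 difference of 0.35. By edgeR 18 members had an unadjusted p under 0.05, and the count lower was also 0 with DESeq2. The count higher was 9 without mouse 192 (8.5% of all genes tested), mouse 210 (12.1%) or mouse 277 (9.92%). It was 28 in mice 209, 210 and 277 only (19%) and 7 in mice 155, 192 and 194 only (16.4%), with 1 lower in each of these subsets. Pecam1, Tie1, Eng, Fli1, Sox17, Ets1 and Icam1 were kept in every setting planned. Tjp1 and Cgnl1, more than 2-fold higher without the replicate block, did not pass with it (edgeR adjusted p = 0.0703 and 0.151). Between unbound RNA and input of this line few members were called: 2 of 43 members were higher in the negative fraction (Egfl7 and Ly6c1, at 0.38 and 0.27, with 1.41% of all genes higher) and 2 lower (Tjp1 and Calcrl, at -0.38 and -0.63, with 4.70% lower). With the mouse as a replicate block these counts were 6 and 5, where 17.7% and 19.5% of all genes tested were called, so the members' shares lay below those of all genes. Cldn5 and Bsg (0.25 and 0.22) were among those higher with the block, and Abcb1a and Flt1 (-0.29 and -0.24) among those lower. Without any single mouse other than 155 they were 0 and 0, with 0 to 3 genes called over the whole table.

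Alongside the members, pericyte and smooth muscle markers were lower in 7 and higher in 1 of 12 in the microglial positive fraction relative to input, oligodendrocyte markers lower in 6 of 7 and astrocyte markers lower in 5 of 8. In the wider vascular list, 16 of 72 genes were higher (23.3% of all genes tested) and 25 lower (25.6%), with a median log2 difference of -0.16. F11r, the junctional adhesion molecule JAM-A (2.66), the TGF-beta receptor gene Tgfbr2 (1.64) and the transcriptional cofactor gene Lmo2 (1.57) rose most. Fzd4, the Norrin receptor (-1.13), Slit2 (-0.94) and the peptide ligand gene Adm (-0.88) fell most. The input libraries are shared with the comparison with whole tissue, so the members' values in both are given side by side only: Pecam1 was at -1.33 in input against whole tissue and 0.78 in positive fraction against input, Ets1 at -0.90 and 1.66, and Abcb1a at -1.66 and -0.18.

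To compare the lines, a model of both fractions of each line asked whether enrichment on the beads relative to unbound RNA differed between them (an interaction term). In 5 members this enrichment was higher in the astrocyte line (25.5% of all 13983 genes tested) and in 12 it was higher in the microglial line (29.9%). The first were Vcam1 at 2.90 (SE 0.15, edgeR adjusted p = 3.72e-11), Mfsd2a at 2.85 (SE 0.21), Slco1c1 at 2.10 (SE 0.23), Ramp2 at 1.74 (SE 0.19) and Slc3a2 at 1.56 (SE 0.15), and all 5 were kept in every setting planned. Fli1 at -3.08 (SE 0.52, edgeR adjusted p = 6.61e-05) and Icam1 at -2.72 (SE 0.48, edgeR adjusted p = 0.000103) were called in the other direction, as was Sox17 (-1.27), but these 3 passed the low-count filter in some groups only, Fli1 and Sox17 through the microglial line alone and Icam1 not in the astrocyte positive fraction, so their values are descriptions. The other 9 were Ets1 (-1.99), Eng (-1.47), Egfl7 (-1.30), Abcg2 (-1.25), Tie1 (-1.09), Pecam1 (-1.01), Ly6a (-0.95), Esam (-0.91) and Slco1a4 (-0.91). For Cldn5, Cdh5, Flt1, Kdr, Tek and Abcb1a a difference between lines did not pass. With the mouse as a replicate block the counts were 7 (27.1% of all genes tested) and 14 (30.9%): Ocln at 0.55 (edgeR adjusted p = 0.0354) and Bsg at 0.53 (edgeR adjusted p = 0.0298) passed in the astrocyte direction, and Plvap at -0.67 and Vwf at -0.92 in the other.

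**Figure D4:**
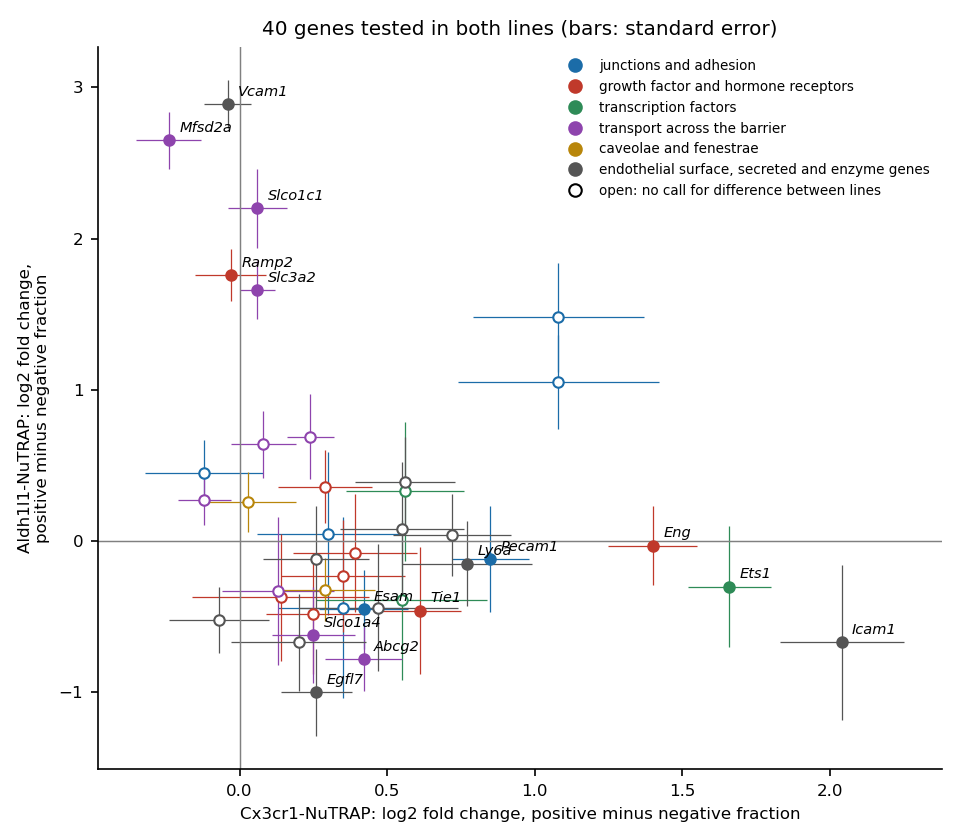
Log2 difference of positive against negative fraction in the Cx3cr1-NuTRAP line (horizontal axis) and the Aldh1l1-NuTRAP line (vertical axis), edgeR, for the 40 members tested in both. Filled points are members whose difference between lines passed an adjusted p under 0.05. Vcam1, Mfsd2a, Slco1c1, Ramp2 and Slc3a2 stand high on the vertical axis, while Icam1, Ets1 and Eng lie to the right.

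Set directly against each other, the positive fractions of the 2 lines differed in both directions: of 43 members tested, 7 were higher in the astrocyte line (30.6% of all 13676 genes tested) and 12 lower (33.1%). Of the 43, 9 passed the low-count filter only through the microglial positive fraction, and 3 of these, Fli1, Icam1 and Emcn, are among the 12. The count lower was 22 with total counts only (46.1% of all genes tested), 7 without mouse 210 (30.4%) or mouse 290 (31.1%) and 16 without mouse 293 (30.3%), so it depended on the scaling and on single mice. Mfsd2a had 75.5, 106 and 104 CPM in the 3 astrocyte and 11.5 to 15.7 in the 6 microglial positive fractions, and was higher in the first. Eng, at 6.19 to 11.8 CPM in the astrocyte and 26.6 to 46.8 in the microglial positive fractions, was lower (log2 -1.58, SE 0.25, edgeR adjusted p = 0.000214). The lines differ in mice, in Cre driver and possibly in time since tamoxifen, as well as in tagged cell type. These cannot be told apart in this comparison. As background, the unbound fractions of the lines gave 0 of 44 members called in either direction (0.125% of all 13613 genes tested each way; edgeR), with 4 members at an unadjusted p under 0.05 and 1 higher and 1 lower by DESeq2. They were not alike for every marker. In the astrocyte line 2 of 8 astrocyte, 1 of 7 choroid plexus and 1 of 6 fibroblast markers were lower, with Aqp4 at -1.44. Higher there were 1 of 10 microglial markers, Cx3cr1 at 0.93, and 1 of 7 oligodendrocyte markers.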

How the data were processed

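RNA was purified from brain hemispheres by TRAP and sequenced as polyA-selected, strand-specific, paired-end libraries. In Strand NGS the authors aligned trimmed reads with strand to mm10, counted them over RefSeq genes, and deposited estimated counts per gene (expected counts, 82.4% of nonzero values not whole at a tolerance of 1e-06) in 1 table of 36172 rows. The deposited log2 values, normalized with DESeq by the authors and centred per gene, were used for no result. Libraries were assigned to fraction and mouse by column title, and p-values describe mice as replicates.

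Counts were rounded and tested in R 4.3.3 with edgeR 4.0.16 (TMM, robust quasi-likelihood fit), on genes with over 20 counts in every library of at least 1 group compared. P-values were Benjamini-Hochberg adjusted over all genes tested, with a threshold of 0.05. CPM were computed on library totals of 4260949 to 26857866 reads. A floor of 3 counts per library was never reached by a member. DESeq2 1.42.0 was an alternative test, and others were its size factors, total counts only, no low-count filter, the mouse as a replicate block and leaving out each mouse. The test was first tested on simulated data. Fractions of 1 hemisphere share the mouse number: deviations from the group means correlated between same-numbered libraries at 0.484 to 0.692 in the Aldh1l1-NuTRAP fractions and, in Cx3cr1-NuTRAP, at 0.058 to 0.646 between negative fraction and input, -0.265 to 0.189 between positive fraction and input, -0.307 to 0.248 between positive and negative fraction and -0.20 to 0.076 between input and whole tissue. Library values are given for the defining members of each role and for members called with a change over 2-fold; wider-list genes are named if among the 3 largest called changes each way. Members and lists were chosen with earlier results of these data known, the nuclear RNA list and the subsets of Cx3cr1-NuTRAP mice after the libraries were seen. Promoter windows came from RefSeq (GRCm38.p6).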

Additional observations from a re-analysis of the deposited data

Results flagged for a closer look

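Of 176 groups of 4 or more libraries examined over the members, 18 held a library far from the others by Dixon's criterion, which chance gives in about 1 of 20. The whole tissue of mouse 210 was low for 6 members: Cdh5 at 8.83 CPM, Flt4 at 3.62, Tie1 at 7.745, Eng at 15.4, Robo4 at 2.93 and Slco1c1 at 35.2. This library is also the shallowest and has the nuclear RNA sum given above, and their part in these values was not tested.

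The negative fraction of mouse 155 stood apart for 5 members. Cldn5 was high at 49.8 CPM, where the other 5 negative fractions had 29.8 to 33.5. Tjp1 was low at 45.3 CPM, Pecam1 at 8.30, Abcb1a at 9.115 and Slc7a5 at 55.96, so the junction gene Cldn5 and the adhesion gene Pecam1 moved in opposite directions in this library. The input of the same mouse was high for Slc3a2, at 137.8 CPM.

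Single members marked other libraries. In the positive fraction of mouse 194, Eng was 46.8 CPM and Fli1 19.95 CPM. In mouse 210, Plvap was high in the positive fraction, at 31.35 CPM, and in the input, at 17.6 CPM, and Flt4 was high in the input, at 4.49 CPM. Ly6c1 was low in the negative fraction of mouse 192, at 13.45 CPM.

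Between lines, the tested difference in the log2 ratio of positive to negative fraction (Aldh1l1-NuTRAP minus Cx3cr1-NuTRAP) passed for 17 members. It was positive for Vcam1 at 2.90, Mfsd2a at 2.85, Slco1c1 at 2.10, Ramp2 at 1.74 and Slc3a2 at 1.56. Negative values belonged to Fli1 at -3.08, Icam1 at -2.72, Ets1 at -1.99, Eng at -1.47, Egfl7 at -1.30, Sox17 at -1.27, Abcg2 at -1.25, Tie1 at -1.09, Pecam1 at -1.01, Ly6a at -0.95, Esam at -0.91 and Slco1a4 at -0.91. Fli1, Sox17 and Icam1 passed the low-count filter in some groups only. Lines, mice and any difference in time since tamoxifen cannot be told apart in these values.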

How the results depend on the processing

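Percentages in parentheses give the share of all genes tested that was called in the same direction and setting. For input against whole tissue, 35 to 39 members were lower when a mouse was left out (8.76% to 19.4%), 35 with the replicate block (9.85%), and 0 higher in every setting. The 39, without mouse 210, include Icam2, which passed the low-count filter there only through whole tissue. Among members tested with and without that mouse the count was 38. In the astrocyte line, members lower in the positive than in the negative fraction numbered 7 with total counts only (36.1%), 4 with the replicate block (33.8%) and 0 to 5 when a mouse was left out (12% to 34.3%), and members higher 5 to 10 (14.8% to 34.6%). For microglial positive fraction against input, members lower numbered 1 with DESeq2 size factors (23.8%), 0 without the low-count filter (15.2%), 1 with the DESeq2 test (25.1%), 0 to 2 when a mouse was left out (18.8% to 25.9%) and 1 in mice 209, 210 and 277 only (29.2%), and members higher 14 to 20 when a mouse was left out (18.2% to 23.8%), 15 with the replicate block (19%) and 9 in mice 155, 192 and 194 only (21.6%). Against the negative fraction, members higher numbered 9 to 16 when a mouse was left out (8.34% to 15%; 9 members without mouse 192, 210 or 277), 28 in mice 209, 210 and 277 only (19%) and 7 in mice 155, 192 and 194 only (16.4%), and members lower 1 in each subset (16.8% and 8.4%). Between negative fraction and input, members higher numbered 1 with total counts only (1.09%), 0 without the filter (0.251%), 6 with the replicate block (17.7%) and 0 to 3 when a mouse was left out (0% to 12.8%), and members lower 1 without the filter (1.08%), 5 with the block (19.5%) and 0 to 4 when a mouse was left out (0% to 14.8%). Between positive fractions of the lines, members lower numbered 22 with total counts only (46.1%, in place of 33.1%), 7 to 16 when a mouse was left out (28.4% to 33.1%; 7 members without mouse 210 or 290) and 19 with Cx3cr1-NuTRAP mice 209, 210 and 277 only (27.3%). Between negative fractions, 1 was higher and 1 lower with the DESeq2 test (1.88% and 1.92%), and 0 to 1 each when a mouse was left out (0% to 0.436% and 0% to 0.515%). In the test between lines, members higher numbered 8 with mice 209, 210 and 277 only (22.9%), and members lower 6 with mice 155, 192 and 194 only (26.6%). The replicate block changed no other count by over 1.5 times. Total counts only moved the median of all genes by -0.35 in the astrocyte line, -0.31 between positive fractions and -0.27 in the test between lines.

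Among values called in the subset or with all mice, the sign turned for 2 genes, in mice 209, 210 and 277 only. Values called in neither also changed sign, among them Cdh5 (0.11 with all mice, -0.35 in mice 155, 192 and 194) and Abcb1a (-0.18 with all mice, 0.04 in mice 209, 210 and 277). Cgnl1 was at -0.19 against input, -0.06 against the negative fraction and 1.13 in the test between lines (log2), and Itm2a at 0.23 and 0.37 against input and negative fraction. The cause was not tested. Low counts limited Flt4, Fli1, Sox17 and Nostrin in the astrocyte line and Icam2 in whole tissue.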

Other observations

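Summed over the 44 members, the level was 1269 to 1328 CPM in the 6 inputs, 1270 to 1429 in the 6 negative fractions and 1454 to 1741 in the 6 positive fractions of Cx3cr1-NuTRAP mice, 1542 to 1959 in the 5 whole tissues, 1193 to 1429 in unbound RNA of the 3 Aldh1l1-NuTRAP mice and 1832 to 1966 on their beads. A sum in CPM is weighted towards the most abundant members, so it is given as a description of the libraries and was not tested.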
